A study of Mus musculus with 12 samples.

Results

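Of the 6871 lncRNA transcripts that the authors assembled without an annotation, 4499 (65.5%) carry the type intronic in their table, and these were taken as the unannotated intronic lncRNAs. They belong to 4302 gene identifiers, of which 4124 hold a single intronic transcript. The rest of the table is 1834 intergenic and 538 antisense transcripts. ICR mice, which are an outbred stock, gave the RNA at day 17 of pregnancy, from the inguinal mammary gland numbered 4th. Control mice received a control diet, and the labels say no more of them. Met mice ate a methionine-deficient diet from the start of pregnancy and had methionine injected into the peritoneum, in an amount equal to 35% of what the control diet supplies. Met-Met mice were treated likewise, with 25% of the injected methionine replaced by methionyl-methionine, the dipeptide. Each group holds 4 libraries, 12 in all. Comparisons with Control therefore join diet, route and amount of methionine, which cannot be told apart, and only Met-Met against Met varies the dipeptide alone. Nothing in the labels ties a library to 1 mouse of its own. The p-values hence reflect the spread among these libraries, part of which may be technical.

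Long noncoding RNAs are transcripts above a length limit that do not appear to encode a protein. An intronic lncRNA is one that lies inside an intron of another gene. Some such RNAs have promoters of their own, while others derive from the host gene's transcript, such as stable spliced-out introns or unspliced precursor RNA. In the late pregnant mammary gland, the epithelium fills the fat pad and begins to transcribe the milk protein genes at very high levels. The table gives no host gene, symbol, position, strand or sequence for the unannotated transcripts, so the type could not be checked and the transcripts are named by the authors' identifiers. Whether counting used the strand is not given in the sources used here. Reads from an intronic transcript and from the unspliced RNA of its host cannot then be told apart. Since whole glands were used, fewer cells of a type and less RNA per cell cannot be told apart either.

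Several libraries stood apart within their groups. Control 1, 2 and 3 had summed B cell markers of 52.1 to 77.7 scaled FPKM, Met 4, Met-Met 1 and Met-Met 3 of 15.6 to 16.8, and the other 6 libraries of 0.498 to 2.39. Met 2 held skeletal muscle markers at 291 and skin keratinocyte markers at 29.3, against at most 6.51 and 2.74 in the other 11. The RNA Gm26917 stood at 9013 to 9305 deposited FPKM in Met 3, Met 4 and Met-Met 2 and at 72.3 to 99.2 elsewhere. The 7 milk protein genes summed to 102442 to 229254 in Control, 256382 to 359237 in Met and 170664 to 234210 in Met-Met. The summed adipocyte markers spanned 2323 to 2740, 1795 to 2406 and 918 to 2103 in the same order. Scaled FPKM here are the deposited values divided by a factor per library, set on protein-coding genes. Read numbers are not given, so absolute depth is unknown. Relative depth, read from the steps between low values, ran from 0.884 in Met 1 to 1.16 in Met 3 with Control 1 set to 1.

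Most unannotated intronic lncRNAs were close to the limit of what the libraries register. Their median over transcripts of the 12-library mean was 0.0868 scaled FPKM, below the 0.105 of the intergenic and the 0.128 of the antisense transcripts. The interquartile range was 0.0490 to 0.170. Only 736 of the 4499 (16.4%) were listed above 0 in all 12 libraries, 519 were above 0 in a single library, and 1 was listed at 0 throughout. The typical transcript was above 0 in 6 libraries. A mean of 0.5 scaled FPKM was reached by 183 intronic transcripts (4.07%), and these alone entered the tests. Intergenic and antisense transcripts reached it in 8.89% and 7.81% of cases. Above this bound, 57 intronic transcripts had a mean of at least 1, 8 of at least 5 and 4 of at least 10. The transcripts below the bound were not tested, and nothing is said of whether they change.

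The intronic RNA summed over all 4499 transcripts was highest in a single Met library. In Control 1 to 4 the sum was 665, 620, 1060 and 1060 scaled FPKM. In Met 1 to 4 it was 1225, 1745, 1088 and 792, and in Met-Met 1 to 4 it was 832, 875, 704 and 1137. Met 2 stood above all others, Met 4 lay between the Control libraries, and the ranges of the 3 groups overlapped. The means were 851 ± 242 (SD, n = 4) in Control, 1213 ± 398 in Met and 887 ± 182 in Met-Met. On the FPKM as deposited they were 907 ± 182, 1049 ± 309 and 870 ± 149. As a share of all unannotated lncRNA, the intronic sum ran from 46.7% in Met 4 to 66.3% in Met-Met 4.

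**Figure D1:**
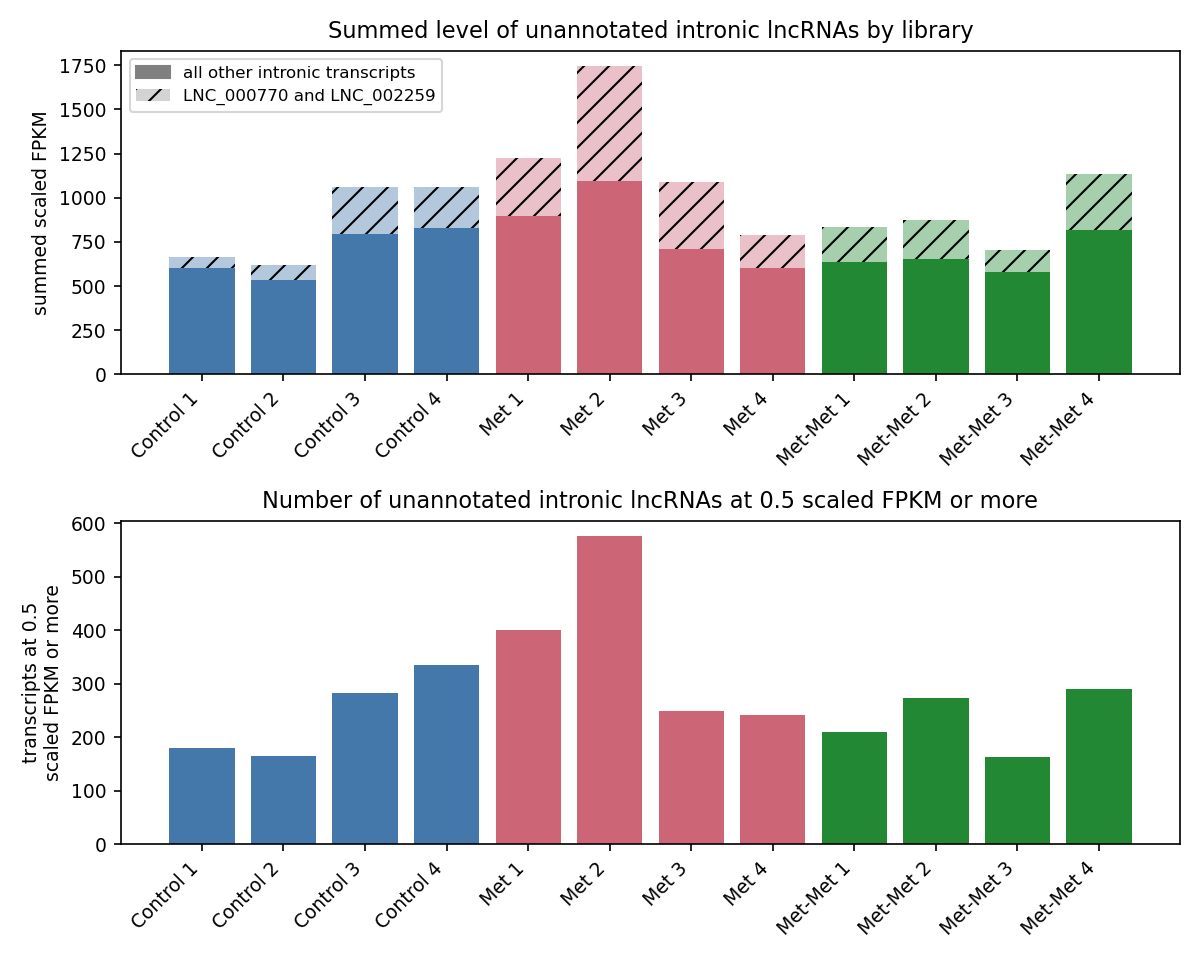
Upper panel: summed scaled FPKM of the unannotated intronic lncRNAs in each of the 12 libraries, coloured by group, with the part from LNC_000770 and LNC_002259 hatched. Lower panel: number of intronic transcripts at 0.5 scaled FPKM or more. Met 2 is highest in both, with a sum of 1745 and 576 transcripts, and the groups overlap.

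The number of intronic transcripts at 0.5 scaled FPKM or more followed the same order of libraries only in part. It was 180, 165, 283 and 335 in Control 1 to 4, 400, 576, 250 and 241 in Met 1 to 4, and 209, 273, 164 and 290 in Met-Met 1 to 4. Met 1 and Met 2 lay above every other library, and Met 3 and Met 4 fell inside the Control range. On deposited values the counts in Met 3 and Met 4 dropped to 159 and 199, below all 4 Control libraries (229 to 339), and Met 2 stood at 363. The number above 0, which needs no scaling, ran from 1994 in Met 4 to 2601 in Control 3.

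LNC_000770 and LNC_002259 carried much of this sum. Both were present in every library, and together they made 9.39% of the intronic sum in Control 1 and 37.3% in Met 2. LNC_000770 stood at 29.8, 42.7, 146 and 107 scaled FPKM in Control 1 to 4, at 159, 350, 215 and 96.6 in Met 1 to 4, and at 100, 112, 50.1 and 159 in Met-Met 1 to 4. Its group means were 81.4 ± 54.8, 205 ± 108 and 105 ± 44.8 (SD, n = 4 each). Met 2 and Met 3 were the highest libraries, Control 1 and 2 the lowest, and the groups overlapped. LNC_002259 had nearly the same profile, with 32.6, 44.2, 120 and 124 in Control, 171, 302, 162 and 93.4 in Met, and 94.9, 108, 75.5 and 158 in Met-Met. Neither passed the test: the limma log2 fold change of Met against Control was 1.46 (SE 0.55, adjusted p = 0.164) for LNC_000770 and 1.29 (SE 0.48, adjusted p = 0.156) for LNC_002259. With quantile normalization the value was 0.37 for LNC_000770 and turned to -0.39 for LNC_002259.

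The levels of both broadly went with the milk protein genes, though not in each library. Met 4 had a milk gene sum of 256382, above every Control library, but LNC_000770 at 96.6, below Control 3 and Control 4. Met-Met 1, 2 and 4 had milk gene sums of 233041 to 234210, with LNC_000770 at 100, 112 and 159. Over the 12 libraries, on log2 values, Pearson's r between LNC_000770 and LNC_002259 was 0.97. The coding genes most like LNC_000770 were Wap, whey acidic protein (r = 0.96), Trf, the iron carrier transferrin (r = 0.94), and Csn1s1, a casein (r = 0.93). For LNC_002259 they were Trf (r = 0.93), Glycam1, a mucin-like milk protein (r = 0.92), and Ppp1r37 (r = 0.91). The third in level, LNC_005089, with a mean of 12.1 scaled FPKM and a range of 4.54 to 23.9, was most like Fah, an enzyme of tyrosine breakdown, then Trf and Hint3 (r = 0.91 each). The fourth, LNC_000587, with a mean of 11.6, was highest in Met 1 at 22.4 and most like Rpl22l1 (r = 0.89), a ribosomal protein paralogue. These values share the libraries and their scaling factors and are given as a description.

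**Figure D2:**
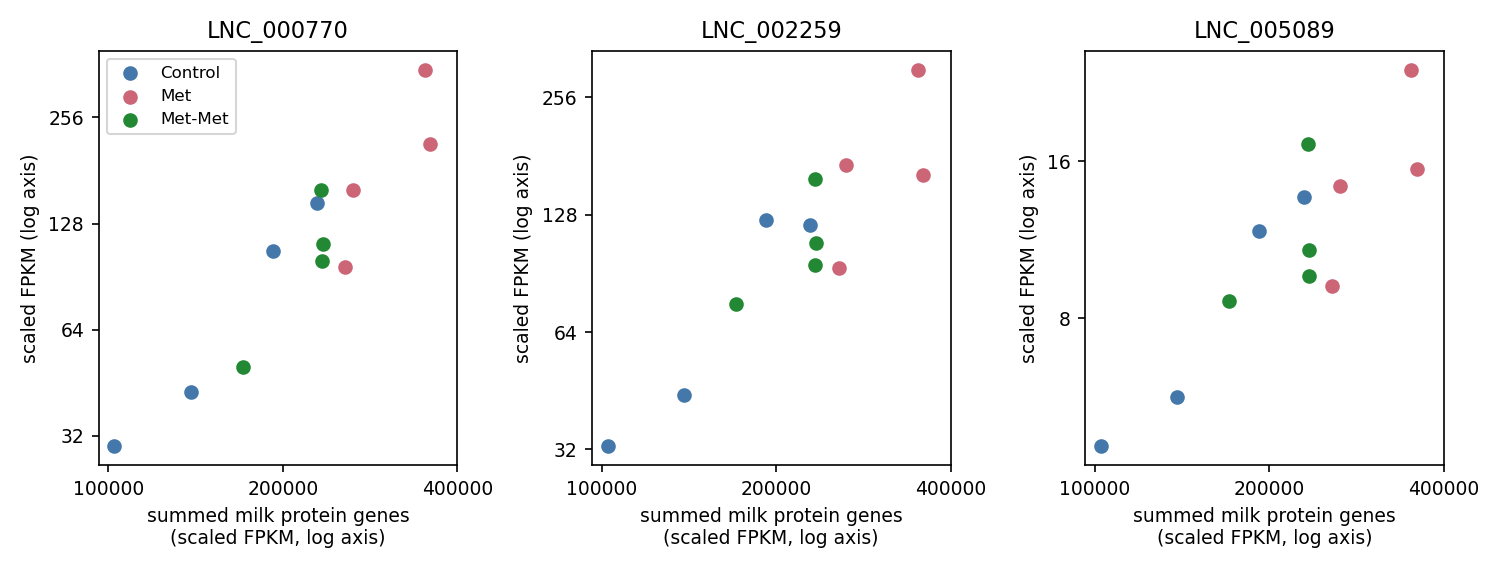
Scaled FPKM of LNC_000770, LNC_002259 and LNC_005089 against the summed scaled FPKM of 7 milk protein genes, both on log axes, 1 point per library, coloured by group. Control 1 and Control 2 lie at the low end of both axes and Met 2 and Met 3 at the high end of the milk axis. All 4 Met libraries sit at 256382 or more on that axis.

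The summed scaled FPKM of LNC_000770 and LNC_002259 had r = 0.93 with the summed milk protein genes over 12 libraries, and the Spearman rank correlation was 0.78. Leaving out Control 1 and Control 2, the libraries farthest from the median milk level, gave r = 0.83. On deposited values, without the scaling factors used here, r was 0.90, though both sums still share the FPKM denominator of each library. For the remaining intronic sum r was 0.61 on scaled and 0.10 on deposited values, so that value depended on the scaling. Transcript by transcript, 64 of the 183 tested intronic lncRNAs (35.0%) had r of at least 0.5 with the milk gene sum, and 18.8% of 11452 protein-coding genes did. The median r was 0.35 for intronic, 0.06 for intergenic and 0.07 for antisense transcripts and 0.01 for coding genes. The milk genes were not alone in this. With the mean log2 level of a marker list in place of the sum, 26.8% of the intronic transcripts and 15.2% of the coding genes reached that r for milk secretion. For skeletal muscle the shares were 31.1% and 10.1%, and for skin keratinocytes 33.9% and 12.5%. Both of those lists are highest in Met 2.

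A few libraries held the highest value of most tested intronic transcripts. Met 2 was the highest of the 12 libraries for 69 of 183 (37.7%), Met 1 for 37 (20.2%) and Met-Met 4 for 23 (12.6%). Of the 163 tested intergenic transcripts, Met 2, Met 1 and Met-Met 4 were highest for 14.7%, 8.59% and 1.23%, and of the coding genes for 15.6%, 8.72% and 8.20%. On deposited values the intronic shares were 25.1%, 19.1% and 13.1%, and after scaling on the unannotated transcripts themselves 25.7%, 12.6% and 17.5%. Met 2 therefore led under all 3 scalings. Met 2 is also the library with skeletal muscle and skin keratinocyte markers, and Met-Met 4 has the second highest muscle sum, at 6.51, while Met 1 is at 1.05. The part of those tissues in these values was not tested.

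**Figure D3:**
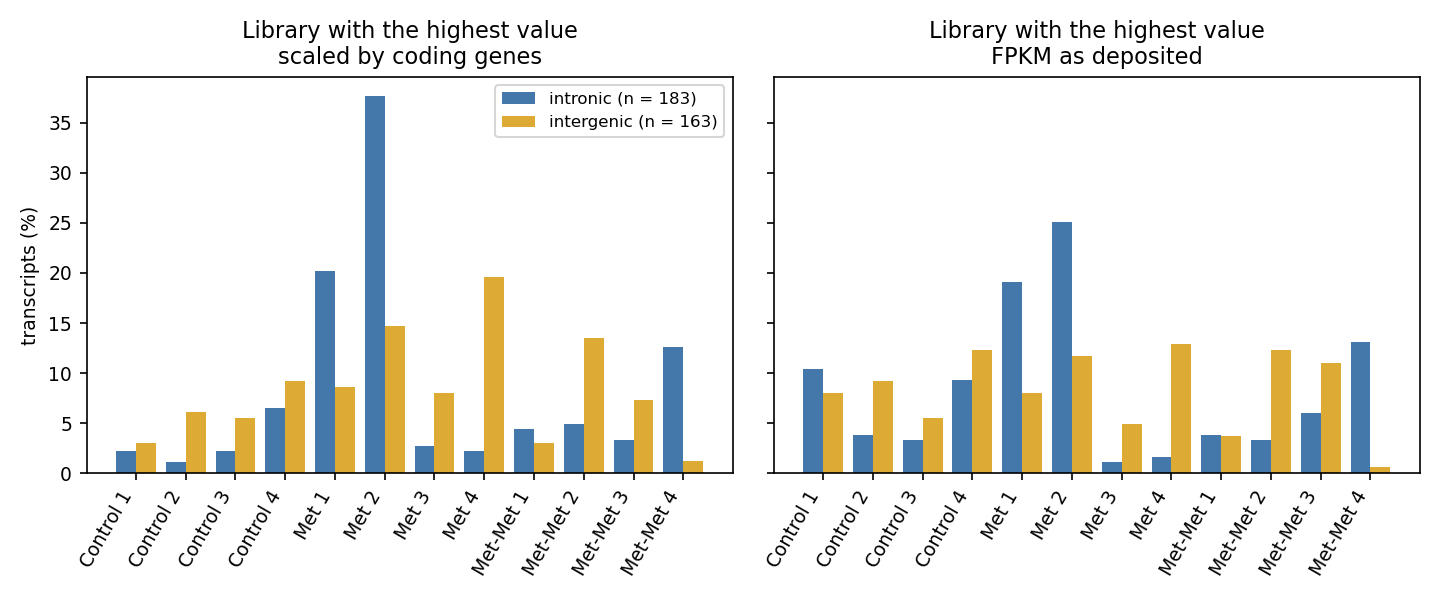
Percent of tested transcripts whose highest value among the 12 libraries falls in each library, for 183 intronic and 163 intergenic transcripts, with values scaled on coding genes (left) and as deposited (right). Met 2 holds 37.7% and 25.1% of the intronic transcripts, and Met-Met 4 holds 12.6% and 13.1% of the intronic but 1.23% and 0.613% of the intergenic ones.

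Met against Control asks what methionine deficiency with injected methionine does to these transcripts. In the limma fit over the 388 tested unannotated lncRNAs of all types, 4.12% were called at an adjusted p under 0.05, 3.35% higher and 0.773% lower. Of the 183 intronic transcripts, 4 were called higher (2.19%) and 1 lower (0.546%), shares no larger than those of the whole table. At an unadjusted p under 0.05 the shares were 17.5% of the intronic and 20.4% of all tested transcripts. The median log2 fold change was 0.19 for the intronic and 0.12 for all tested transcripts, and 73.8% of the intronic values were above 0 against 62.9% overall. This median rests on the scaling. It was 0.07 after scaling within the unannotated table and -0.01 on deposited values, where the median of all tested transcripts was 0.00 and -0.08. The groups did not overlap in 14 of the 183 intronic transcripts that were higher in Met and in 5 that were lower. Of all 388 tested, 29 (7.47%) were higher and 14 (3.61%) lower in this way.

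**Figure D4:**
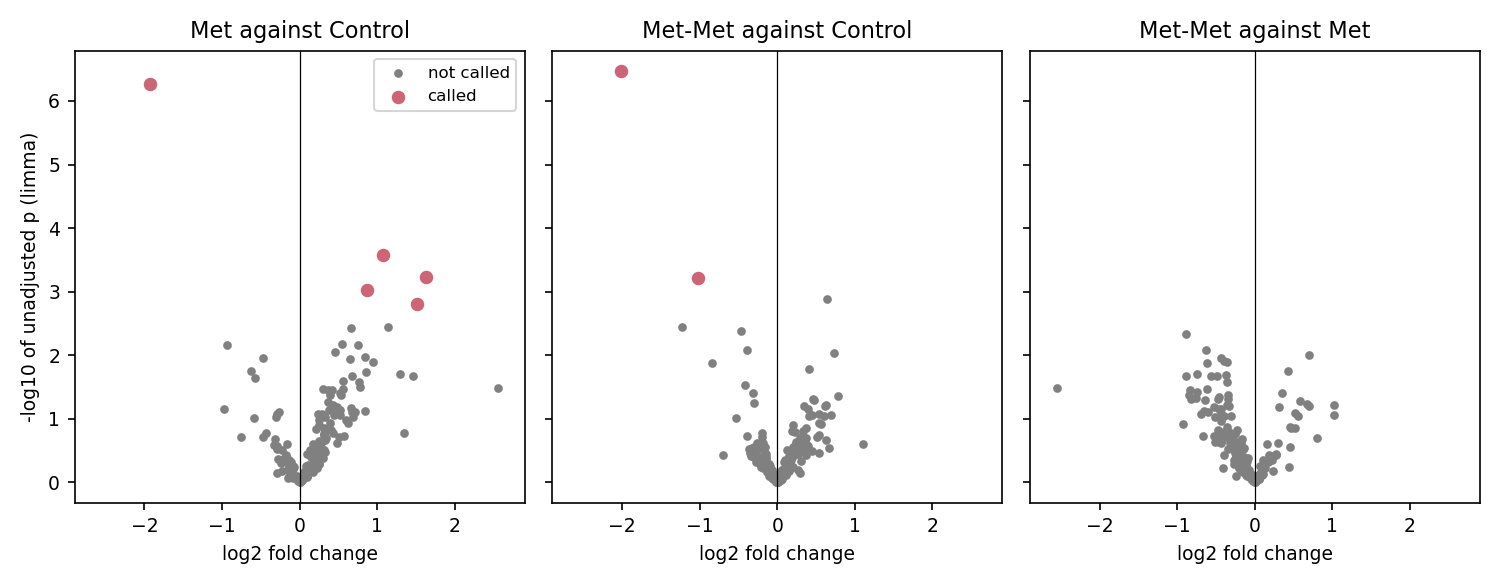
Log2 fold change against −log10 of the unadjusted limma p for the 183 tested intronic lncRNAs in each comparison, with called transcripts (adjusted p under 0.05) in colour. LNC_001881 stands apart at −1.93 and −2.02 in both comparisons with Control, and none is called in Met-Met against Met.

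LNC_001881 was the intronic transcript with the smallest p in both comparisons with Control. It stood at 2.04, 1.35, 2.21 and 2.07 scaled FPKM in Control 1 to 4. In Met 1 to 3 it was at 0.179, 0.151 and 0.208, and in Met 4 it was listed at 0. In Met-Met 1 and 2 it was at 0.180 and 0.223, and in Met-Met 3 and 4 it was listed at 0. Its mean of 0.718 over the 12 libraries passed the minimum of 0.5 only through Control, with group means of 1.92, 0.134 and 0.101. With levels this low in Met and Met-Met, it could be tested only because it was high in Control. Every Control library lay above every library of the other groups, with no overlap, while Met and Met-Met overlapped. On the log2(scaled FPKM + 0.5) scale, which understates changes of low transcripts, it fell by 1.93 in Met (SE 0.20, limma adjusted p = 0.000212) and by 2.02 in Met-Met (SE 0.20, limma adjusted p = 0.000132). Both comparisons share the Control libraries. Met-Met differed from Met by -0.09 (SE 0.20, limma adjusted p = 0.869).

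The call on LNC_001881 held in 27 of 28 alternative fits in each comparison. These fits reuse the same libraries, 12 of them leaving out 1 library, and so are not separate support. Its mean of 0.718 kept it out of the fit of transcripts with a mean of at least 1. The call was lost without the 6 libraries with lymphocyte markers, where a single Control library remains, with log2 fold changes of -1.92 and -2.10. Control 4, in which B cell markers summed to 0.498, had LNC_001881 at 2.07, within the range of the other Control libraries. The coding gene most like it was Sncg, gamma-synuclein, a protein made in fat and nerve (r = 0.95 over 12 libraries), at 62.9 ± 12.3, 4.60 ± 1.43 and 3.32 ± 1.59 scaled FPKM in Control, Met and Met-Met. Idua, a lysosomal iduronidase (r = 0.95), and Cyp4v3, a cytochrome P450 (r = 0.94), came next. The Spearman rank correlation was 0.70 for Sncg, 0.94 for Idua and 0.64 for Cyp4v3. The r of LNC_001881 with the mean erythrocyte and adipocyte marker levels was 0.87 and 0.76, and the Spearman rank correlations were 0.63 and 0.48. With the adipocyte marker mean as a covariate the Met difference was -2.42 (limma adjusted p = 0.00202).

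LNC_004135 was the other intronic transcript called lower, in Met-Met against Control, where 1.29% of all tested transcripts were called and every call was lower. It stood at 1.73, 1.12, 1.69 and 1.65 scaled FPKM in Control, at 0.774, 1.06, 0.875 and 0.751 in Met, and at 0.464, 0.199, 0.442 and 1.08 in Met-Met. Control did not overlap the other groups, but the gap between Control 2 and Met-Met 4 was small. It fell by 1.02 in Met-Met (SE 0.22, limma adjusted p = 0.0482), and by 0.58 in Met, which did not pass (SE 0.22, limma adjusted p = 0.169). The Met-Met call held in 7 of 28 alternatives and in 1 of the 12 fits that left out a library, the fit without Met-Met 4. Without any of the other 11, limma adjusted p ran from 0.0561 to 0.151. Its level followed the adipocyte (r = 0.90) and erythrocyte (r = 0.88) markers about equally, and the endothelial markers less closely (r = 0.76). Its most alike coding genes were Mgst3, a glutathione transferase (r = 0.93), Cebpa, a transcription factor of fat cell differentiation (r = 0.93), and Adipoq, the fat hormone adiponectin (r = 0.92). With the adipocyte marker mean as a covariate the difference was -0.20 (limma adjusted p = 0.943).

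Of the adipocyte markers themselves, 7 of 12 were lower without overlap in Met than in Control and 1 was higher, and 9 of 12 were lower in Met-Met. The 5 erythrocyte markers were lower in both groups, with sums of 216 to 760 in Control, 64.1 to 129 in Met and 11.9 to 119 in Met-Met. Markers of further cell types also lay below the Control range in Met, which was not tested, for 6 of 8 fibroblast, 5 of 6 macrophage, 4 of 8 myoepithelial and 3 of 6 endothelial genes. The share of all coding genes whose groups do not overlap was not taken. These marker counts therefore have no background to be read against. The fibroblast sum was 1374 to 1795 in Control, 625 to 796 in Met and 1083 to 1609 in Met-Met. The mean log2 adipocyte marker level spanned 6.22 to 6.53 in Control, 5.22 to 5.47 in Met and 4.43 to 5.75 in Met-Met. Control did not overlap the other groups, so the covariate fits cannot separate adipocyte content from treatment. The part of these cells in LNC_001881 and LNC_004135 was not tested.

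The 4 intronic transcripts called higher in Met had levels of 0.923 to 4.24 scaled FPKM there. LNC_001887 stood at 0.116, 0.278, 0.357 and 0.984 in Control 1 to 4, at 1.28, 4.24, 3.04 and 1.35 in Met 1 to 4, and at 1.11, 1.27, 0.587 and 1.25 in Met-Met 1 to 4. Met 2 and Met 3 were far above the other libraries, and Met overlapped neither Control nor Met-Met, the latter by a narrow margin. Its log2 fold change in Met against Control was 1.63 (SE 0.35, limma adjusted p = 0.0303). It was most like Slc39a6, a zinc transporter (r = 0.97), St7 (r = 0.97) and Rassf6 (r = 0.96). The call held in 16 of 29 alternatives. The level ran against the fibroblast and B cell markers (r = -0.73 and -0.78) and with the milk genes (r = 0.77). The call was lost without Control 1, Control 2, Control 3, Met 2 or Met 3, at limma adjusted p of 0.099, 0.0821, 0.0632, 0.0597 and 0.0916.

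LNC_005387 stood at 0.348, 0.246, 0.335 and 0.351 in Control, at 0.923, 0.990, 3.58 and 2.91 in Met, and at 0.522, 1.93, 0.821 and 0.440 in Met-Met. Its 3 highest libraries, Met 3, Met 4 and Met-Met 2, are those with high Gm26917. Every Met and every Met-Met library lay above every Control library. The log2 fold change in Met was 1.51 (SE 0.37, limma adjusted p = 0.0404). Without these 3 libraries, which leaves only Met 1 and Met 2 in the Met group, it was 0.83 (limma adjusted p = 0.0388). The part of the libraries with high Gm26917 in this difference was not tested further. The most alike coding genes were Cdc73, a part of a complex that travels with RNA polymerase II (r = 0.96), Rpl12, a ribosomal protein (r = 0.93), and Hsp90aa1, a chaperone (r = 0.91). Rpl12 and Hsp90aa1 varied widely within Met, at 281 ± 314 and 103 ± 130 scaled FPKM (SD, n = 4), against 7.80 ± 1.16 and 1.91 ± 0.22 in Control. The call held in 9 of 29 alternatives. It was lost without any 1 of the Control libraries, Met 2, Met 3, Met 4 or Met-Met 3, at limma adjusted p of 0.0518 to 0.119.

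LNC_005892 and LNC_005745 lie outside the naming rule and are named because so few were called, after their values were seen. LNC_005892 stood at 0.933, 1.13, 1.10 and 1.26 in Control, at 3.66, 3.36, 2.34 and 2.38 in Met, and at 2.44, 1.58, 1.44 and 1.499 in Met-Met. Control lay below both other groups without overlap, and Met-Met 1 reached into the Met range. Its log2 fold change was 1.08 in Met (SE 0.21, limma adjusted p = 0.0172), held in 17 of 29 alternatives, and 0.46 in Met-Met (SE 0.21, limma adjusted p = 0.524). The Met call was lost without Control 1, Control 2, Control 3 or Met 2, at limma adjusted p of 0.0518 to 0.0726. It was most like Man1a2, a Golgi mannosidase, Dhodh, an enzyme of pyrimidine synthesis, and Bcar1, an adhesion adaptor (r = 0.96 each).

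LNC_005745 stood at 0.159, 0.532, 0.585 and 0.664 in Control, at 1.82, 1.05, 1.28 and 1.01 in Met, and at 0.680, 0.697, 0.749 and 0.451 in Met-Met. Met lay above both other groups without overlap, and those overlapped each other. The log2 fold change in Met was 0.87 (SE 0.20, limma adjusted p = 0.0360), held in 8 of 28 alternatives. It was lost without Control 1, 2 or 3, Met 1, 2 or 3, or Met-Met 3, at limma adjusted p of 0.0518 to 0.101. Its most alike coding gene was Larp1, a regulator of ribosomal protein mRNAs (r = 0.93).

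**Figure D5:**
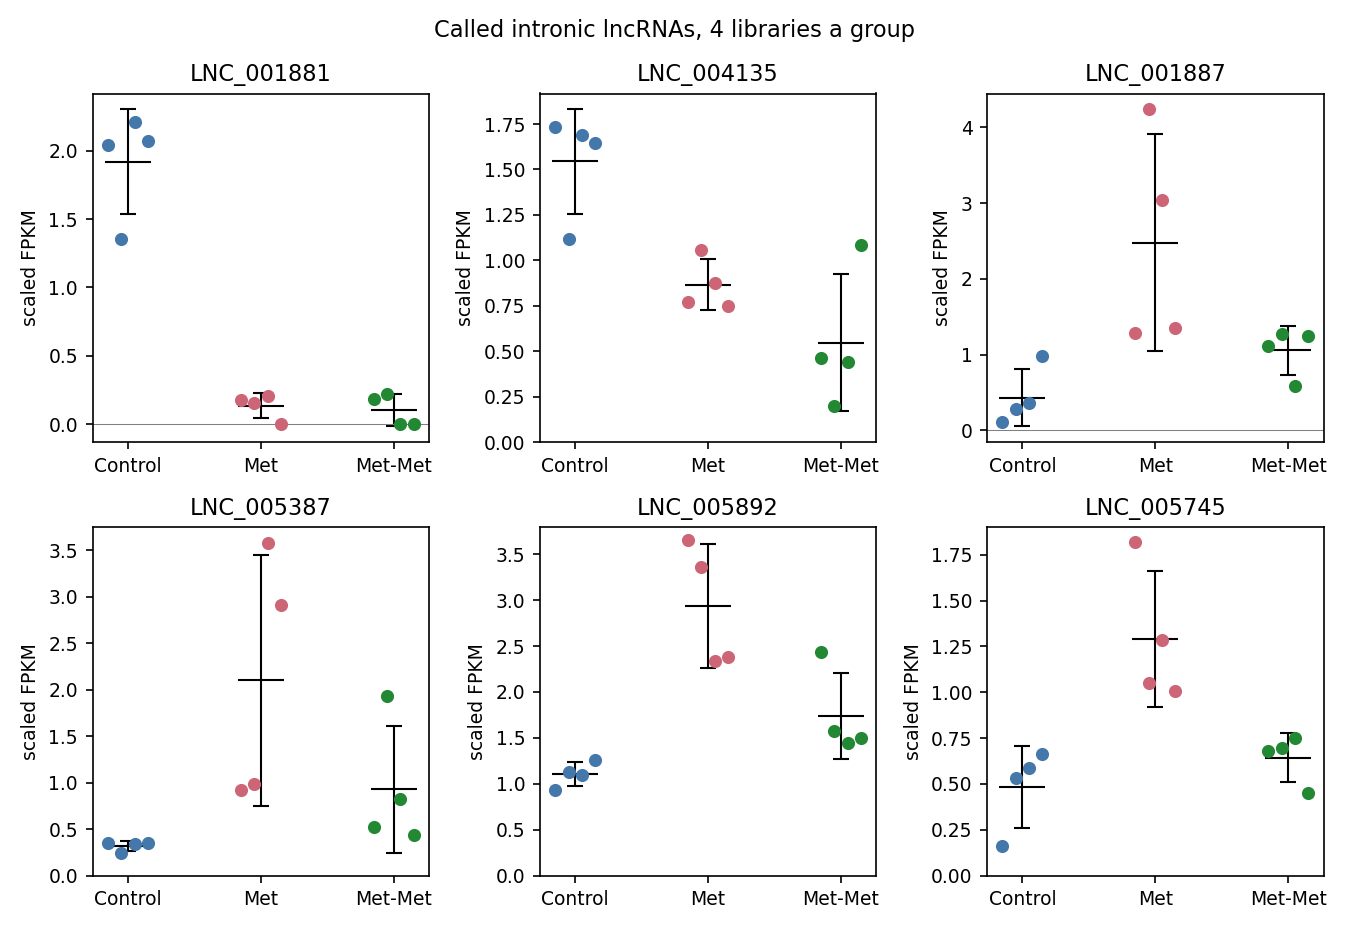
Scaled FPKM of the 6 called intronic lncRNAs in each library, by group, with the mean as a bar and the SD (n = 4) as whiskers. LNC_001881 and LNC_004135 are highest in Control, and the other 4 are highest in Met, where Met 2, Met 3 or Met 1 give the top values.

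Whether these 4 transcripts passed the threshold depended on single libraries more than the size of the difference did. In the fits without 1 library that lost the call, the log2 fold change was 1.36 to 1.61 for LNC_001887, 1.24 to 1.72 for LNC_005387, 1.02 to 1.09 for LNC_005892 and 0.69 to 0.93 for LNC_005745. Leaving out 1 library gave between 1 and 8 called intronic transcripts in Met against Control. The count was 1 without Control 1, Control 2, Control 3 or Met 2, 2 without Met 3, 3 without Met-Met 3 and 8 without Met 4. With the milk gene mean, the adipocyte mean or the B cell mean as a covariate, 1 intronic call remained in each fit. The log2 fold changes of LNC_005387 were then 1.46, 1.00 and 1.53, and those of LNC_005892 were 1.03, 0.79 and 1.01. Those of LNC_001887 were 1.04, 1.41 and 1.01, and those of LNC_005745 were 0.74, 0.55 and 0.75. Without a covariate they were 1.51, 1.08, 1.63 and 0.87 in the same order. Every value with a covariate was lower, except that of LNC_005387 with the B cell mean. The lowest came with the adipocyte mean for LNC_005387, LNC_005892 and LNC_005745, and with the B cell mean for LNC_001887. The adipocyte mean did not overlap between Control and Met, so its fits cannot separate adipocyte content from treatment. The r with the fibroblast markers was -0.77 for LNC_005387, -0.80 for LNC_005892 and -0.86 for LNC_005745. Other lists came close, with r of -0.72 for LNC_005387 and the endothelial markers. It was -0.75 for LNC_005892 and the myoepithelial markers, and -0.82 for LNC_005745 and the macrophage markers. The part of those cells was not tested.

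In Met-Met against Control, limma called no intronic transcript higher and 2 lower (1.09%). At an unadjusted p under 0.05 there were 6 higher and 8 lower. These 14 were 7.65% of the intronic transcripts, and 9.54% of all tested transcripts passed the same bound. The median log2 fold change was 0.04 for the intronic and -0.01 for all tested transcripts. Groups did not overlap in 11 of the 183 intronic transcripts that were higher and 7 that were lower. Of all 388 tested, 14 (3.61%) were higher and 20 (5.15%) lower in this way. Among those not called, LNC_004632 had the smallest p in the higher direction. It stood at 0.444 to 0.477 over Control 1 to 4, at 0.737, 1.05, 0.483 and 0.506 in Met, and at 0.981, 0.898, 0.904 and 1.23 in Met-Met. Each Control library was below every other library. Its log2 fold change in Met-Met was 0.64 (SE 0.15, limma adjusted p = 0.0713), and it passed in 4 alternatives. Gcat, a mitochondrial enzyme of threonine breakdown, was most like it (r = 0.96).

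The comparison of Met-Met with Met addresses the dipeptide. No unannotated lncRNA of any type was called by limma, so none of the 183 intronic transcripts was. At an unadjusted p under 0.05 there were 26 intronic transcripts, 3 higher and 23 lower in Met-Met, or 14.2%, and 17.5% of all tested transcripts. The median log2 fold change was -0.16 for the intronic and -0.15 for all tested transcripts. Groups did not overlap in 1 of the 183 intronic transcripts that was higher and 7 that were lower. Of all 388 tested, 1 (0.258%) was higher and 23 (5.93%) lower in this way. Leaving out Met 4 gave 3 intronic calls.

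The smallest p in each direction in this comparison belonged to LNC_000676 and LNC_006212. LNC_000676 stood at 1.59, 1.21, 0.785 and 0.706 in Met and at 0.359, 0, 0.456 and 0.660 in Met-Met, with Control at 0.324 to 0.607. The groups Met and Met-Met did not overlap, and the log2 difference was -0.88 (SE 0.26, limma adjusted p = 0.113). Its mean of 0.636 over all libraries passed the minimum of 0.5 only through Met. The group means were 0.466 in Control, 1.07 in Met and 0.369 in Met-Met. LNC_000676 could thus be tested only because it was high in Met. It was most like the ribosomal protein genes Rps23, Rpl39 and Rpl22 (r = 0.92, 0.92 and 0.91). LNC_006212 stood at 0.792, 0.270, 0.298 and 0.810 in Met and at 1.07, 0.968, 0.984 and 1.62 in Met-Met, with Control at 0.749 to 1.501. Met lay below Met-Met throughout, and the log2 difference was 0.70 (SE 0.23, limma adjusted p = 0.164). It was most like Arhgef19 (r = 0.94), Cldn1, a tight junction protein (r = 0.93), and Plxnb1, a semaphorin receptor (r = 0.92).

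The largest spread over the 12 libraries was that of LNC_000771 and LNC_005106. LNC_000771, which shares the gene identifier of LNC_000770, was listed at 18.4 in Met 1 and 15.1 in Met 3 and at 0 in the other 10 libraries. It passed the minimum of 0.5 only through Met 1 and Met 3. Summed over both transcripts, the identifier stood at 177 in Met 1 and 230 in Met 3, against 159 and 215 for LNC_000770 alone. The sum placed Met 1 above Met-Met 4, at 159, where LNC_000770 alone has them level. How reads were split between transcripts of 1 identifier is not given in the sources used here. LNC_005106 ranged from 0 in Control 1, 2 and 4 and Met-Met 3 to 6.97 in Met-Met 4. Neither was called in Met against Control, at limma adjusted p of 0.194 and 0.472.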

How the data were processed

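FPKM per transcript were calculated and deposited by the authors, in a table of unannotated lncRNAs for 12 libraries and a table of protein-coding transcripts per library. The submitters' processing notes list StringTie 1.3.1, HISAT2 2.0.4 and Bowtie2 2.2.8, and as builds mm9 and GRCm38, with no role given. Per the labels' protocols, RNA was extracted with TRIzol. The strand, the annotation and the reads used as the FPKM denominator are not given in the sources used here.

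Library values were scaled by a factor (0.815 to 1.20), the median over 11809 coding genes averaging 1 FPKM or more of the ratio to the mean library. Unannotated transcripts with a mean of at least 0.5 scaled FPKM (388, of which 183 are intronic) were fitted as log2(scaled FPKM + 0.5) in R 4.3.3 with limma 3.58.1, using 3 group means over 12 libraries and an intensity trend. Adjusted p-values are Benjamini-Hochberg over the 388, two-sided, called under 0.05. The fit was tested on simulated data. Python 3.11.15, pandas 2.3.3, numpy 2.4.6 and matplotlib 3.10.9 made tables and figures. Low values cluster at whole multiples of the lowest (888 of 21974 ratios lie within 0.02 of 2, and 243 and 212 within 0.02 of 1.9 and 2.1), which gave relative but not absolute depth. Low values therefore carry counting error of unknown size.

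The members, marker lists and tests were chosen with earlier results of these data known. Named transcripts are, per comparison and direction, the 2 most extreme called ones (or the smallest p where none was called), the 4 highest means and the 2 largest SDs, each with the 3 most correlated coding genes. No 2 libraries held identical values. Alternatives covered scaling, pseudocount (0.1, 1), filter, libraries in the fit, the replicate number as a block, trend, library weights, sums per gene identifier, marker means as covariates and leaving out libraries. The milk protein covariate and the fit without Met 2 and Met-Met 4 were added after the data were seen.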

Additional observations from a re-analysis of the deposited data

Results flagged for a closer look

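In 54 groups of 4 libraries, 5 had a library farther from the rest than the 95% critical value of Dixon's test allows, where chance alone gives about 1 in 20. The value is the gap to the nearest library divided by the range of the group. LNC_004135 had 0.863 in Control, from Control 2 at the low end of 1.12 to 1.73 scaled FPKM. LNC_005106 had 1 in Control, where Control 3 stood at 1.79 and the other 3 libraries were listed at 0. LNC_005387 had 0.852 in Control, from Control 2 at the low end of 0.246 to 0.351. LNC_005892 had 0.864 in Met-Met, from Met-Met 1 at 2.44 above a lowest value of 1.44. LNC_006212 had 0.837 in Met-Met, from Met-Met 4 at 1.62.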

How the results depend on the processing

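Ordered as Met to Control, Met-Met to Control and lastly Met-Met to Met, calls were 16, 5 and 0 of all tested unannotated transcripts and 5, 2 and 0 of the intronic ones. In Met against Control, calls of all types were 8 on deposited values, 9 with scaling within the lncRNA table, 9 with quantile normalization, 5 with a mean of at least 1, 6 with 8 libraries alone, 38 with library weights and 29 summed per gene. They were 1 with each of the B cell, adipocyte and milk protein covariates, without the 6 lymphocyte-marker libraries and without Met 2 and Met-Met 4. Intronic calls were then 3, 3, 2, 2, 2, 14 and 11, then 1 in each covariate fit, 0 without the 6 libraries and 1 without Met 2 and Met-Met 4. In Met-Met against Control, calls of all types were 8 with quantile normalization, 8 summed per gene, 2 with the B cell covariate, 0 with a mean of at least 1, and 1 each with no filter, 8 libraries, the adipocyte or milk covariate, and without the 3 libraries with high Gm26917 or the 6. Intronic calls were 4 with quantile normalization, 0 with a mean of at least 1 or without the 6, and 1 with pseudocount 0.1, no filter, 8 libraries, no trend, any covariate or without the 3. In Met-Met against Met, calls of all types were 15 with no filter, 6 with library weights, 11 summed per gene, 1 without the 3 libraries and 3 with the milk covariate, and intronic calls were 1 with no filter. The causes were not tested.

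The replicate number as a block gave 4, 1 and 0 calls over all types and 1, 1 and 0 in intronic transcripts. Same-numbered libraries correlated at -0.37 to 0.17 in their deviations from the group means, and those of different number at -0.30 to 0.38. These values show no pairing by number but do not settle whether there is any. Leaving out each library in turn gave 1 to 22, 1 to 6 and 0 to 14 over all types and 1 to 8, 1 to 2 and 0 to 3 intronic calls. The lowest in Met against Control came without Met 2, and the highest in Met-Met against Met without Met 4. The mean number of intronic transcripts at 0.5 or more in Met-Met was 234 and 307.5 with scaling within the lncRNA table. Of the named transcripts' alternative values, 1153 kept their direction and side of the threshold, 88 lost the call, 6 gained it and 40 changed sign, all 40 in comparisons that were not called. The log2 fold changes that changed sign follow, grouped by setting.

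With quantile normalization, Met against Control was -0.47 for LNC_000587, -0.39 for LNC_002259 and -0.22 for LNC_005089. Met-Met against Met was then 0.35 for LNC_000587, 0.14 for LNC_000770, 0.44 for LNC_002259 and 0.70 for LNC_005089, and Met-Met against Control was -0.12 for LNC_000587. In this last comparison, deposited values gave -0.071 for LNC_000587 and -0.027 for LNC_006212. The B cell covariate gave -0.17 for LNC_000587, -0.062 for LNC_000770, -0.013 for LNC_002259 and -0.10 for LNC_006212. The milk covariate gave -0.21 for LNC_000587, -0.66 for LNC_000770, -0.32 for LNC_002259, -0.30 for LNC_005089 and -0.12 for LNC_005106. The adipocyte covariate gave 0.63 for LNC_000676 and -0.17 for LNC_005745, and 0.076 for LNC_004135 in Met against Control. Without the 6 lymphocyte-marker libraries the values were -0.050 for LNC_000587, -0.13 for LNC_005745 and -0.18 for LNC_006212, and 0.79 for LNC_005106 in Met-Met against Met. Without the 3 libraries with high Gm26917, LNC_000676 was at 0.035. Without Met 2 and Met-Met 4, LNC_000587 was at -0.13, LNC_006212 at -0.054, and LNC_001881 at 0.011 in Met-Met against Met. Leaving out each library gave LNC_000587 from -0.13 to 0.23, LNC_000676 from -0.37 to 0.035 and LNC_006212 from -0.054 to 0.19 in Met-Met against Control, and LNC_005106 from -0.99 to 0.31 in Met-Met against Met.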

Other observations

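Few intronic transcripts were present or absent by group. LNC_004214 was the only one of 4499 listed above 0 in all 4 Control libraries and at 0 in the other 8, at 0.283, 0.103, 0.0809 and 0.185 scaled FPKM in Control 1 to 4. LNC_005546 was the only one at 0 in all 4 Met-Met libraries and above 0 in the other 8, at 0.0573 to 0.393. Both lie below the minimum of the test and were picked after their values were seen. Each is 0.0222% of the intronic transcripts. Over all 6871 unannotated transcripts, 3 (0.0437%) were listed only in Control and 2 (0.0291%) were at 0 only in Met-Met. Of the 183 tested intronic transcripts, 3 (1.64%) were lower in the 6 libraries with lymphocyte markers than in every other library. None was higher. Of the 11818 coding features, 208 (1.76%) were higher and 24 (0.20%) lower. Of the tested intergenic transcripts, 0.61% were higher and none was lower, and no tested antisense transcript was either. In the 3 libraries with high Gm26917, 2 intronic transcripts (1.09%) were higher than in every other library and 1 (0.55%) was lower. The shares were 0.61% and 0% of the tested intergenic transcripts and 0.47% and 0.38% of the coding features.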
